A study of Mus musculus with 10 samples.

Results

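The genes followed here belong to the CXC chemokine system: the interferon-inducible ligands Cxcl9, Cxcl10 and Cxcl11 with their receptor Cxcr3, the ligand Cxcl12 with its receptor Cxcr4, the B cell attractant Cxcl13, and the ligands Cxcl14, Cxcl16 and Cxcl17. They were found by symbol, and each symbol matched 1 of the 48897 genes listed for every library, so the group held 10 genes of 48897.

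The study asked how loss of Arid1a, a DNA-binding subunit of the SWI/SNF chromatin remodelling complex, alters mouse prostate tumours. RNA-seq libraries came from sorted prostate epithelium (EpCAM positive, CD45 negative) of C57BL/6 mice aged 3 months. Of these libraries, 3 carried no label of an Arid1a deletion (the controls, A to C) and 3 were Arid1aPC-/- (labelled Arid1a KO, A to C). All 6 came from mice with a further engineered deletion that both groups share, so the controls are not wild type. PC stands for deletion by a Cre recombinase under the Probasin promoter, which is active in prostate epithelium, so deletion is not directed to stromal or immune cells. The other 4 libraries came from Myc-CaP, a prostate cancer line of the FVB strain driven by a Myc transgene, of which 2 carried the empty vector (EV) and 2 were labelled Arid1a KO. Whether the Myc-CaP knockout was a single clone, and whether RNA of several mice was pooled, is not given in the sources used here. All labels carry one text on culture of Myc-CaP and one on the epithelial sort, and the study also sorted Myc-CaP cells from tumours, so growth of these 4 libraries in culture is not settled.

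CXC chemokines are small secreted proteins that direct the movement of leukocytes through receptors coupled to G proteins. Cxcl9, Cxcl10 and Cxcl11 are induced by interferons, chiefly interferon-gamma, and attract activated T cells and natural killer cells that carry Cxcr3. Cxcl12, Cxcl13 and Cxcl14 are called homeostatic because they are made without inflammation, often by stromal or epithelial cells, and Cxcl12 acts through Cxcr4 to retain and recruit leukocytes and to guide tumour cells.

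The promoters of 4 genes are shown because of the changes of their transcripts in the epithelium. Cxcl9 and Cxcl10 are neighbouring CXCR3 ligands that both fell, by different amounts. Cxcl12 and Cxcl13 are homeostatic ligands that changed in opposite directions. Each line gives the 250 bases before the RefSeq start on GRCm38.p6, from 5′ to 3′ on the strand of the gene. The windows were chr5:92328080-92328329, minus strand, for Cxcl9, chr5:92348890-92349139, minus strand, for Cxcl10, chr6:117168285-117168534, plus strand, for Cxcl12, and chr5:95956689-95956938, plus strand, for Cxcl13. Capitals mark matches, on either strand, to the core of the interferon-stimulated response element (ISRE, the letters GAAA, any 2 bases and GAAA again), the gamma-activated site (GAS, TTCNNNGAA), the TATA box (TATAAA) and the kB consensus to which NF-kB binds.
Cxcl9: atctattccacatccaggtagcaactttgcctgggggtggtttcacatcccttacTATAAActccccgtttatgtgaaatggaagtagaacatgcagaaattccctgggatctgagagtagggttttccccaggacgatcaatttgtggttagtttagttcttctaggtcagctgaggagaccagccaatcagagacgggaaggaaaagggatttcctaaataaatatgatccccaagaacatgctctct
Cxcl10: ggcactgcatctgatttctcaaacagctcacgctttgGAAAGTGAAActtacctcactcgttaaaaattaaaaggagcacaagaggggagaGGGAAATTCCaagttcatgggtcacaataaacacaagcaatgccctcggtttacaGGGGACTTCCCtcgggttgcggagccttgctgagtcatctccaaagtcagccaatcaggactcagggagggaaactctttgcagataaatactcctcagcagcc
Cxcl12: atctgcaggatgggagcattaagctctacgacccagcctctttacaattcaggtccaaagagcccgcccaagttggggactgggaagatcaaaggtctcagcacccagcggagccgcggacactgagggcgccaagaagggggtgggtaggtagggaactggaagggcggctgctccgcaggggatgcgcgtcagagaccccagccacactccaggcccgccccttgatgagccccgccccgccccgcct
Cxcl13: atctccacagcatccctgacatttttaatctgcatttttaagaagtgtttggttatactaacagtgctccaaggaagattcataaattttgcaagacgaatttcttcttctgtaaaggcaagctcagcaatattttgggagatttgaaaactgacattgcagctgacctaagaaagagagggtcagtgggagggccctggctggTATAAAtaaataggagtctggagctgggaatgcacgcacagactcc

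The Cxcl10 window held the ISRE core GAAAGTGAAA beginning 213 bases before the start and 3 matches to the kB consensus at 159, 104 and 103 bases, the last 2 of which overlap. The Cxcl9 window held only TATAAA, 195 bases before the start, among the motifs searched. Cxcl13 held TATAAA at 46 bases, and Cxcl12, the window richest in G and C of the 4 (64.4% against a median of 52.4% over all promoters), held none. Of 32851 RefSeq promoters of the same length, 2.98% held the ISRE core, 7.02% the GAS, 12.4% TATAAA and 7.25% the kB consensus, on either strand. Sequence was found for 7 of the 10 genes. Of the 3 not shown, Cxcl14 (chr13:56296552-56296801, minus strand) held GAAACAGAAA at 172 bases and the GAS match TTCTGAGAA at 191 bases, Cxcr4 held TATAAA at 30 bases and its reverse complement at 32, and Cxcr3 held none of the motifs. A match describes letters in this window and not a bound site.

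In the annotation (GENCODE M21 on GRCm38), Cxcl9 (chromosome 5, 92321347 to 92328079), Cxcl10 (92346638 to 92348889) and Cxcl11 (92359544 to 92365485) lie on the minus strand within 44139 bases. Cxcl10 and Cxcl11 overlap Art3 on the opposite strand, Cxcl16 (chromosome 11, 70453983 to 70459984) overlaps Zmynd15, and Cxcl17 (chromosome 7, 25400053 to 25412886) overlaps an antisense gene, 4732471J01Rik. The study describes strand-specific counting. Cxcl11 is annotated as a polymorphic pseudogene, since some mouse strains lack an intact reading frame, so its values are transcript levels only. The other genes lie on chromosome 6 (Cxcl12, 117168535 to 117181367), 5 (Cxcl13, 95956951 to 95961068), 13 (Cxcl14, 56288643 to 56296551), X (Cxcr3, 101731535 to 101734269) and 1 (Cxcr4, 128588199 to 128592293).

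Before the chemokines, the targeted gene was checked. Arid1a was not lower in the epithelium labelled Arid1a KO (25.4 ± 3.13 RPKM in controls and 30.2 ± 1.23 in the knockout, SD, n = 3 each, adjusted p = 0.0540), so directions below are those of the libraries labelled Arid1a KO. The study deleted Arid1a by Cre recombination, and a value over the whole gene cannot show whether part of it was lost. Its staining of ARID1A protein in prostate sections is not part of these data. In Myc-CaP, Arid1a fell from 60.7 ± 0.355 to 39.9 ± 0.581 TPM (SD, n = 2 each, adjusted p = 0.0102). RPKM and TPM are read levels scaled to gene length and library size. The steps between low RPKM values gave an approximate depth per epithelium library of 28.85 to 36.25, in units of 1000000 mapped reads, and TPM keeps no depth. At that depth the least abundant genes, Cxcl11 (66 to 260 reads), Cxcl9 (83 to 542) and Cxcr3 (125 to 295), rest on the fewest reads. Summed RPKM was 441646 to 473331 in controls and 397999 to 403031 in libraries labelled Arid1a KO, and r across genes, which are not independent replicates, was 0.987 to 0.994 within epithelium groups.

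All 10 genes were detected in the epithelium, and 9 passed the limma test (Benjamini-Hochberg adjusted p under 0.05 over 16275 genes) in the libraries labelled Arid1a KO. The 3 that rose were Cxcl13, Cxcl16 and Cxcr4, and 6 fell (Cxcl9, Cxcl10, Cxcl12, Cxcl14, Cxcl17 and Cxcr3). Cxcl11 did not pass. The background was high: 57.1% of all genes tested passed, 27.5% as higher and 29.6% as lower. These shares apply equally to the counts of listed genes in the epithelium below. The split depends on scaling, with 4471 genes higher and 4823 lower as deposited and 6046 higher and 3277 lower of 16270 once the libraries were rescaled to the same sum. Control and knockout values were fully separated for 9 of the 10 and for 66.7% of all genes tested. By the study's thresholds, an unadjusted p under 0.05 and at least 1.5-fold on the log2(RPKM + 1) scale, 2 of the 10 rose (Cxcl13 and Cxcr4) and 4 fell (Cxcl9, Cxcl12, Cxcl14 and Cxcl17), against 24.8% of all genes (11.8% as higher and 13% as lower). The median log2 fold change of the 10 was -0.45, beside -0.03 over all genes. Throughout, a log2 fold change is a difference of log2(value + 1), and for low genes it is smaller than the true ratio.

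**Figure D1:**
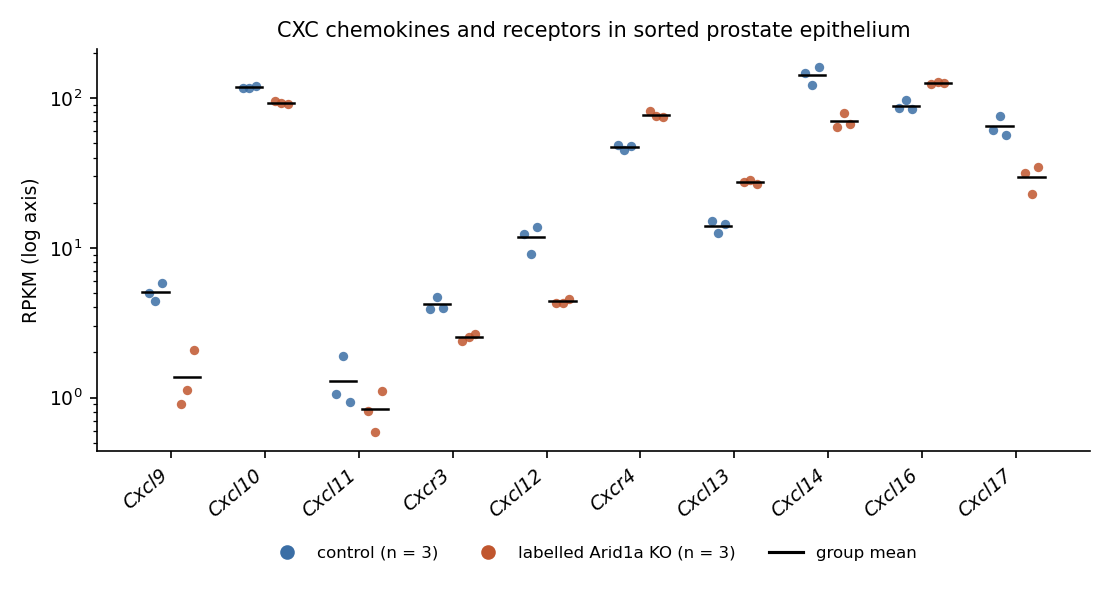
Level of each of the 10 genes in sorted prostate epithelium, in RPKM on a log axis; each point is 1 library (3 controls in blue, 3 labelled Arid1a KO in orange) and bars are group means. The knockout points lie above all control points for Cxcl13, Cxcl16 and Cxcr4, and the points overlap only for Cxcl11.

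Among the CXCR3 ligands, Cxcl9, which is induced mainly by interferon-gamma, fell most. It was 5.00, 4.40 and 5.78 RPKM in the controls (in the order A, B, C, as for all values that follow) and 0.905, 1.12 and 2.09 in the libraries labelled Arid1a KO. All knockout values lay below all control values, although library C held more than A and B together. The means were 5.06 ± 0.690 and 1.37 ± 0.632 (SD, n = 3 each), a 3.68-fold lower level and a log2 fold change of -1.38 ± 0.18 (SE, adjusted p = 6.39e-04).

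Cxcl10, the most abundant CXCR3 ligand, fell by a smaller amount. Its levels were 117, 116 and 121 RPKM in controls and 95.9, 93.0 and 90.7 in the libraries labelled Arid1a KO. The groups were tight and did not overlap, with a log2 fold change of -0.34 ± 0.06 (SE, n = 3 each, adjusted p = 0.00221). After all libraries were rescaled to the same sum the change was -0.16 and was no longer called (adjusted p = 0.0739), while the median of all genes moved to 0.11. Art3, which overlaps Cxcl10 on the opposite strand, fell from 3.38 ± 0.282 to 1.02 ± 0.109 RPKM (log2 fold change -1.12, adjusted p = 7.40e-05), and its part in the Cxcl10 values was not tested.

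Cxcl11 was near 1 RPKM, with 1.05, 1.89 and 0.939 in controls and 0.819, 0.586 and 1.10 in the libraries labelled Arid1a KO. The groups overlapped, and the log2 fold change of -0.31 ± 0.18 (SE, adjusted p = 0.169) had a 95% interval from -0.72 to 0.10. Cxcr3, the receptor of these ligands, was 3.903, 4.706 and 3.947 RPKM in controls and 2.37, 2.54 and 2.65 in the libraries labelled Arid1a KO. It fell without overlap (log2 fold change -0.56 ± 0.09, SE, adjusted p = 0.00149).

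Within a library, the log2 ratio of Cxcl9 to Cxcl10, each with 1 RPKM added, does not depend on scaling between libraries apart from that constant. It was -4.30 ± 0.13 in controls and -5.34 ± 0.40 in the libraries labelled Arid1a KO (SD, n = 3 each), and the ranges did not overlap. The exact two-sided permutation test gave p = 0.1, the smallest it can give with 3 against 3.

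The cells that carry Cxcr3 can be followed by their markers. Of 10 T cell markers, 7 rose and 3 did not pass, with a median log2 fold change of 0.49. Cd3e, part of the T cell receptor complex, was 4.27 ± 0.703 RPKM in controls and 6.19 ± 0.188 in the libraries labelled Arid1a KO. Cd3d and Cd3g, of the same complex, and Cd8a were the 3 that did not pass. Cd3g was 7.22 ± 1.37 RPKM in controls and 6.31 ± 0.604 in the libraries labelled Arid1a KO. The summed T cell list was 29.6 to 38.0 RPKM in controls and 49.8 to 55.2 in the libraries labelled Arid1a KO. Of 8 natural killer and cytotoxic markers, 5 were tested, of which Gzmb (granzyme B) rose and Nkg7 (a cytotoxic granule protein) fell, and the sum of the 8 was 18.6 to 20.1 and then 14.4 to 17.6 RPKM. Nkg7 went from 6.72 ± 0.666 to 2.54 ± 0.348 RPKM and Gzmb from 5.33 ± 0.620 to 7.13 ± 0.965. Cxcr3 thus fell while the T cell list rose, and the part of these cells in the Cxcr3 values was not tested. In bulk RNA, fewer cells of a type and less RNA per cell cannot be told apart.

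Cxcl12 and its receptor Cxcr4 moved in opposite directions. Cxcl12, made largely by stromal cells, was 12.3, 9.16 and 13.9 RPKM in controls and 4.30, 4.28 and 4.56 in the libraries labelled Arid1a KO. The knockout libraries lay close together and below every control, a 2.69-fold lower mean (log2 fold change -1.23 ± 0.13, SE, adjusted p = 2.64e-04). Of 8 fibroblast markers, 4 fell and 4 did not pass, with a median of -0.41. Dcn, the matrix proteoglycan decorin, fell from 500 ± 69.2 to 147 ± 5.03 RPKM, while Col1a1, a collagen, was 602 ± 116 and 655 ± 144. The summed fibroblast list was 1764 to 2584 RPKM in controls and 1437 to 2008 in the libraries labelled Arid1a KO, so the sums overlapped. Of 6 smooth muscle markers, 4 fell and 2 rose. The part of stromal RNA in the Cxcl12 values was not tested.

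Cxcr4, present on most leukocytes and on many tumour cells, was 48.8, 44.8 and 48.1 RPKM in controls and 81.2, 76.1 and 75.0 in the libraries labelled Arid1a KO. It rose 1.64-fold without overlap (log2 fold change 0.70 ± 0.06, SE, adjusted p = 1.22e-04). Leukocyte transcripts moved the same way despite the sort against CD45. Ptprc, which encodes CD45, was 28.6 ± 2.2996 RPKM in controls and 57.3 ± 0.983 in the libraries labelled Arid1a KO. Of 5 pan-leukocyte markers, 4 rose and 1 fell, with sums of 712 to 746 and then 798 to 859 RPKM. Of 10 macrophage and dendritic cell markers, 9 rose, with sums of 1994 to 2323 and then 3752 to 4307 RPKM. Of 8 neutrophil markers, 3 rose and 1 fell, with overlapping sums of 333 to 469 and 373 to 619 RPKM. None of the markers of these lists was at 0 in all libraries, and the part of leukocyte RNA in the Cxcr4 values was not tested.

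Cxcl13, which draws B cells and follicular T cells through the receptor Cxcr5, was the largest rise among the 10. It was 15.2, 12.5 and 14.4 RPKM in controls and 27.3, 28.3 and 26.5 in the libraries labelled Arid1a KO. The mean rose 1.95-fold without overlap (log2 fold change 0.92 ± 0.08, SE, adjusted p = 1.07e-04). Cxcr5 rose as well, from 0.530 ± 0.0497 to 1.71 ± 0.403 RPKM (log2 fold change 0.82 ± 0.12, adjusted p = 0.00116). Of 8 B cell markers, 6 were tested, of which 4 rose and 1 fell. The B cell receptor component Cd79a was 3.36, 3.51 and 3.53 RPKM in controls and 5.15, 8.14 and 9.13 in the libraries labelled Arid1a KO. Cd79b, a further listed component, did not pass (4.88 ± 0.906 in controls and 4.14 ± 0.945 in the knockout). Fcer2a was the 1 that fell, from 1.59 ± 0.266 to 1.02 ± 0.117 RPKM. The B cell sum was 12.1 to 13.9 RPKM in controls and 16.7 to 26.7 in the libraries labelled Arid1a KO, and the part of B cells in the Cxcl13 and Cxcr5 values was not tested. Among the knockout libraries Cxcl13 ranged from 26.5 to 28.3 RPKM and the B cell sum from 16.7 to 26.7. Whether the 2 vary together was not tested.

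Cxcl14 and Cxcl17, chemokines expressed by many epithelia and mucosal surfaces, both fell. Cxcl14 was the most abundant of the 10 in controls, with 147, 121 and 160 RPKM, and was 64.1, 79.4 and 67.2 in the libraries labelled Arid1a KO (2.03-fold lower, log2 fold change -1.01 ± 0.12, SE, adjusted p = 4.04e-04). Cxcl17 was 61.2, 76.2 and 57.0 RPKM in controls and 31.5, 22.7 and 34.5 in the libraries labelled Arid1a KO (2.19-fold lower, log2 fold change -1.12 ± 0.17, SE, adjusted p = 0.00107). Neither overlapped between groups. Library B had the lowest Cxcl14 and the highest Cxcl17 among controls, and the reverse in the knockout group. The antisense gene over Cxcl17 was low, at 0.638 ± 0.0551 and 0.445 ± 0.0913 RPKM.

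The epithelial list did not move as one with these 2 chemokines. Of 7 epithelial markers, 2 rose, 2 fell and 3 did not pass. Epcam, the antigen of the sort, fell from 304 ± 40.9 to 201 ± 21.5 RPKM, and the luminal keratin Krt18 fell from 577 ± 63.7 to 444 ± 9.36. The basal keratins rose, Krt5 from 302 ± 41.8 to 762 ± 76.0 RPKM and Krt14 from 146 ± 30.2 to 799 ± 105. The share of luminal and basal cells in the Cxcl14 and Cxcl17 values was not tested.

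Cxcl16 is made as a membrane-bound chemokine and is released by the proteases Adam10 and Adam17. It was 85.8, 96.3 and 84.5 RPKM in controls and 124, 127 and 126 in the libraries labelled Arid1a KO, without overlap. The mean rose 1.41-fold (log2 fold change 0.50 ± 0.07, SE, adjusted p = 8.28e-04). Adam10 rose from 45.5 ± 2.55 to 67.5 ± 3.86 RPKM and Adam17 from 20.1 ± 0.926 to 31.98 ± 0.936 RPKM (log2 fold changes 0.56 and 0.64, adjusted p = 5.01e-04 and 1.44e-04). Cxcr6, the receptor of Cxcl16 on T cells, was singled out after its values were seen and rose from 1.74 ± 0.235 to 2.51 ± 0.389 RPKM (adjusted p = 0.0305). Zmynd15, on the opposite strand over Cxcl16, rose from 16.8 ± 0.509 to 21.2 ± 1.25 RPKM. The parts of Zmynd15 and of leukocyte RNA in the Cxcl16 values were not tested.

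The order of the levels, compared per gene length, changed between the groups. In controls it ran Cxcl14, Cxcl10, Cxcl16, Cxcl17, Cxcr4, Cxcl13, Cxcl12, Cxcl9, Cxcr3 and Cxcl11, from 143 ± 19.5 RPKM down to 1.29 ± 0.518. The ranges of the neighbours Cxcl13 and Cxcl12, and of Cxcl9 and Cxcr3, overlapped. In the libraries labelled Arid1a KO it ran Cxcl16, Cxcl10, Cxcr4, Cxcl14, Cxcl17, Cxcl13, Cxcl12, Cxcr3, Cxcl9 and Cxcl11, from 126 ± 1.95 RPKM down to 0.836 ± 0.259. There Cxcr4 and Cxcl14, Cxcl17 and Cxcl13, and Cxcl9 and Cxcl11 overlapped. Cxcl13 and Cxcl12, which shared a range in controls, stood at 27.4 ± 0.917 and 4.38 ± 0.157 RPKM in the libraries labelled Arid1a KO.

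A further 9 genes that receive, scavenge or cut these ligands were tested in the epithelium, and 4 rose, 3 fell and 2 did not pass (median log2 fold change 0.04). Besides Cxcr5, Adam10 and Adam17, the largest change was in Ackr1, a decoy receptor of venular endothelium and red cells that binds many chemokines. Ackr1 fell from 9.004 ± 0.840 to 3.94 ± 0.781 RPKM (log2 fold change -1.03 ± 0.13, SE, adjusted p = 4.52e-04). Of 7 endothelial markers, 1 rose and 6 did not pass.

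The pathway from interferon-gamma to the CXCR3 ligands did not move in 1 direction. Of 22 listed receptors, kinases, transcription factors, inhibitors and targets, 12 rose, 3 fell and 7 did not pass (median log2 fold change 0.27). Of all genes tested, 27.5% passed as higher and 29.6% as lower. Ifng, which encodes interferon-gamma and is made by T and natural killer cells, fell from 1.11 ± 0.351 to 0.176 ± 0.0408 RPKM (log2 fold change -0.83 ± 0.13, SE, adjusted p = 0.00149). It met the filter (a mean of at least 0.5 RPKM) only through the controls. Its direction is therefore not independent of the filter, and its values are low. The kinase Jak2, which acts below its receptor, rose. It went from 8.02 ± 0.476 to 17.1 ± 1.97 RPKM (log2 fold change 0.999, adjusted p = 1.21e-04). Irf1, a transcription factor induced by interferons, fell from 64.9 ± 2.99 to 50.03 ± 3.47 RPKM (log2 fold change -0.37, adjusted p = 0.00355). Among targets of interferon, the tryptophan-degrading enzyme Ido1 fell from 3.50 ± 0.183 to 1.57 ± 0.199 RPKM (-0.81, adjusted p = 2.64e-04). Cd274, which encodes the checkpoint ligand PD-L1, rose from 11.0 ± 0.905 to 37.3 ± 2.19 RPKM (1.68, adjusted p = 9.80e-06). Ifng, Irf1 and Ido1 were thus the 3 of the list that fell, while Jak2 and Cd274 were among the 12 that rose. Cxcl9 and Cxcl10, which are not in this list, fell in the same 3 libraries.

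**Figure D2:**
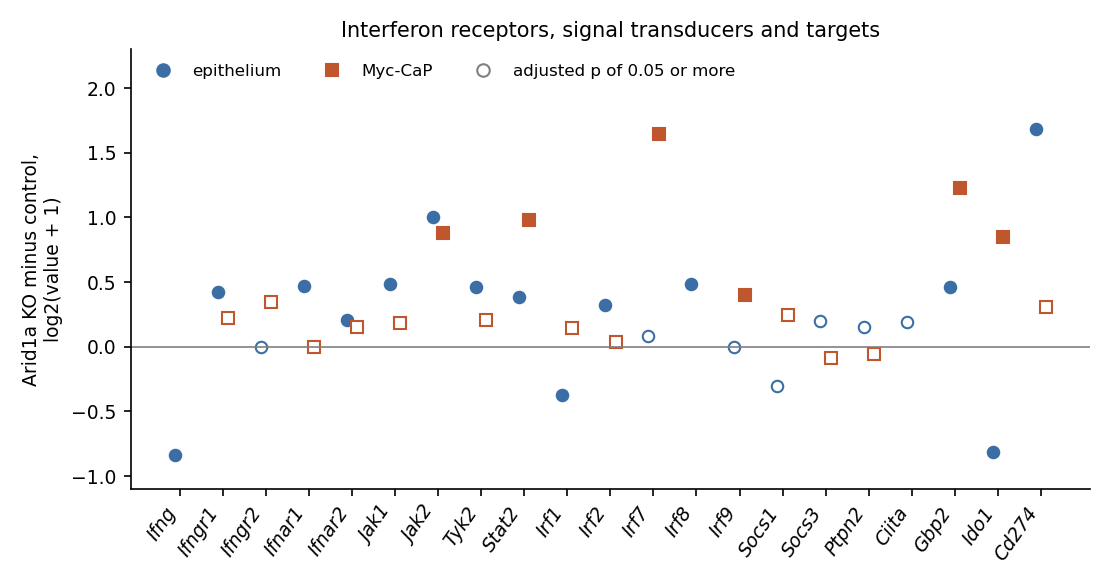
Log2 fold change on the log2(value + 1) scale (Arid1a KO minus control) of genes of the interferon list, from limma; blue circles are epithelium (3 against 3 libraries), orange squares are Myc-CaP (2 against 2), and open symbols did not pass. Ifng, Irf1 and Ido1 lie below 0 in epithelium, while the filled Myc-CaP squares all lie above 0; genes under the filter in Myc-CaP have no square.

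Myc-CaP cells expressed few of the 10 genes. Of the 10, 3 passed the filter (a mean of at least 0.5 TPM) and 7 did not. Cxcl10 rose in the Arid1a KO libraries, the only one of the 3 to pass, against a background of 6.43% of 13974 genes called, 4.54% as higher. The values of all 3 genes were higher in both knockout libraries than in both EV libraries, a separation that 51.5% of all genes tested showed in one direction or the other. Cxcl17 met the filter only through the knockout libraries (mean 0.321 TPM with EV and 0.751 in the knockout). Its direction is therefore not independent of the filter. Cxcl10 and Cxcl11 were past the study's thresholds, both as higher, beside 6.28% of all genes (4.62% as higher and 1.66% as lower).

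Cxcl10 was 12.9 and 12.7 TPM with EV and 28.6 and 24.3 TPM in the Arid1a KO libraries. The mean was 2.06-fold higher, with a log2 fold change of 0.98 ± 0.10 (SE, n = 2 each, adjusted p = 0.0120). The call rested on all 4 libraries: without EV 1, EV 2, KO 1 or KO 2 the change was 0.99, 0.97, 0.87 and 1.10, with adjusted p = 0.110, 0.109, 0.0939 and 0.0728. Those fits called 47 to 76 genes in place of 899 and assume that a lone library varies like the other group. Art3, over Cxcl10 on the opposite strand, was at or below 0.055 TPM in all 4 libraries.

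Cxcl11 was 0.994 and 0.404 TPM with EV and 2.94 and 2.05 TPM in the Arid1a KO libraries. Its log2 fold change was 1.05 ± 0.26 (SE, unadjusted p = 0.0101, adjusted p = 0.0934, 95% interval 0.38 to 1.72), so it did not pass across all genes. Cxcl17 was 0.300 and 0.341 TPM with EV and 0.637 and 0.865 in the Arid1a KO libraries (0.40 ± 0.21, adjusted p = 0.359, 95% interval -0.15 to 0.96).

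**Figure D3:**
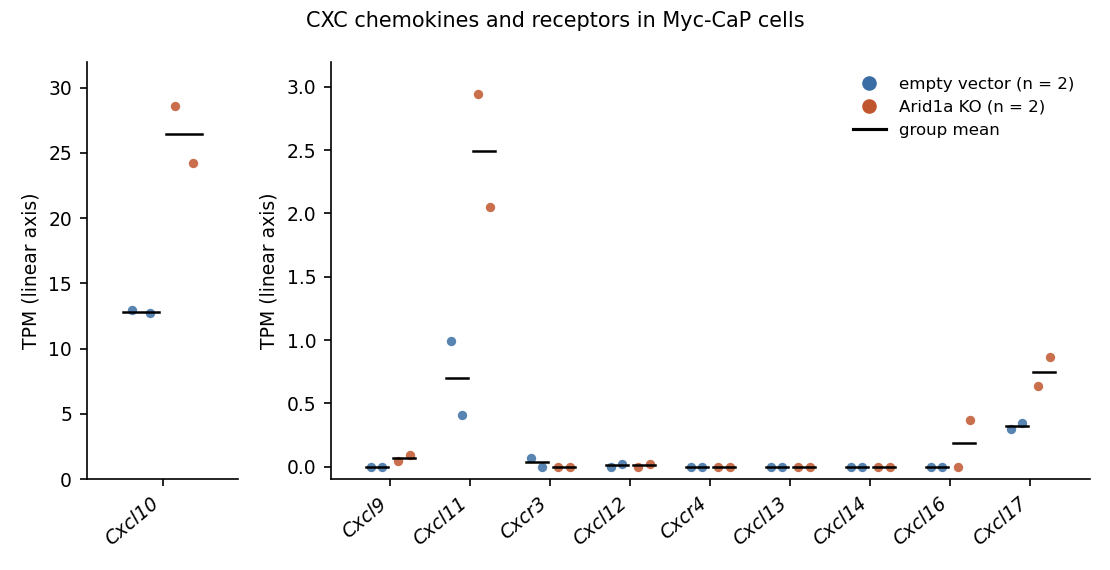
Level of each of the 10 genes in Myc-CaP, in TPM on linear axes, with Cxcl10 on an axis of its own; each point is 1 library (2 empty vector in blue, 2 Arid1a KO in orange) and bars are group means. Cxcl10 and Cxcl11 are higher in both knockout libraries, and Cxcl13, Cxcl14 and Cxcr4 sit at 0.

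The remaining 7 genes were near 0 in Myc-CaP. Cxcl13, Cxcl14 and Cxcr4 were listed at 0 in all 4 libraries. Cxcl9 was listed at 0 in both EV libraries and at 0.0416 and 0.0906 TPM in the Arid1a KO libraries. Cxcl12 reached 0.0181 TPM in EV 2 and 0.0184 in KO 2, Cxcr3 was above 0 only in EV 1 (0.0708 TPM), and Cxcl16 only in KO 2 (0.365 TPM). KO 2 was also the library with the most Krt5 (1.98 TPM, at 0 in the other 3) and Krt14 (6.04 TPM), and EV 2 and KO 2 held Col1a1 at 19.4 and 7.45 TPM beside 0.211 and 0.347 in EV 1 and KO 1. The part of these traces in the Cxcl16 value was not tested.

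Several defining leukocyte markers were at or near 0 in these libraries, and others were low. Cd3e was listed at 0 in all 4, Ptprc was at most 0.0441 TPM, and the neutrophil list summed to at most 0.435 TPM. The whole T cell list summed to between 0.0860 and 1.18 TPM, and Cd3d, Cd3e, Cd3g, Cd8b1 and Cd2 were at 0. The other lists summed to 3.47 to 5.49 TPM for pan-leukocyte markers, mostly Cd52, 2.34 to 3.15 TPM for B cell markers, mostly Fcer2a, and 0.823 to 2.92 TPM for macrophage and dendritic markers, with Cd68 at 1.09 ± 0.374 TPM with EV and 1.63 ± 0.382 in the knockout. The part of leukocyte RNA in the values of the low genes Cxcl11 and Cxcl17 was not tested. The defining epithelial markers were also low: Epcam was 0 in 3 libraries and 0.128 TPM in KO 2, and Cdh1 was at most 0.386 TPM. Krt8 was 0.932 ± 0.201 TPM with EV and 39.6 ± 1.02 in the Arid1a KO libraries.

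In Myc-CaP the interferon list leaned to higher values in the knockout. Of its 22 genes, 19 were tested, 7 rose and 12 did not pass (median log2 fold change 0.25, beside -0.01 over all genes). Of all genes tested in Myc-CaP, 4.54% passed as higher and 1.89% as lower. The largest change was in Irf7, a regulator of type I interferons, from 64.8 ± 0.233 to 205 ± 5.86 TPM (log2 fold change 1.64, adjusted p = 0.00135). Gbp2, a guanylate-binding protein, and Stat2, a transcription factor of type I interferon signalling, rose by 1.23 and 0.98 on the same scale. Irf1 was 21.1 ± 0.590 and 23.4 ± 0.184 TPM (0.14, adjusted p = 0.324). Ifng was listed at 0 in all 4 libraries. Of the 9 receptors, scavengers and proteases, 4 were tested and Adam10 rose (0.50, adjusted p = 0.0404).

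**Figure D4:**
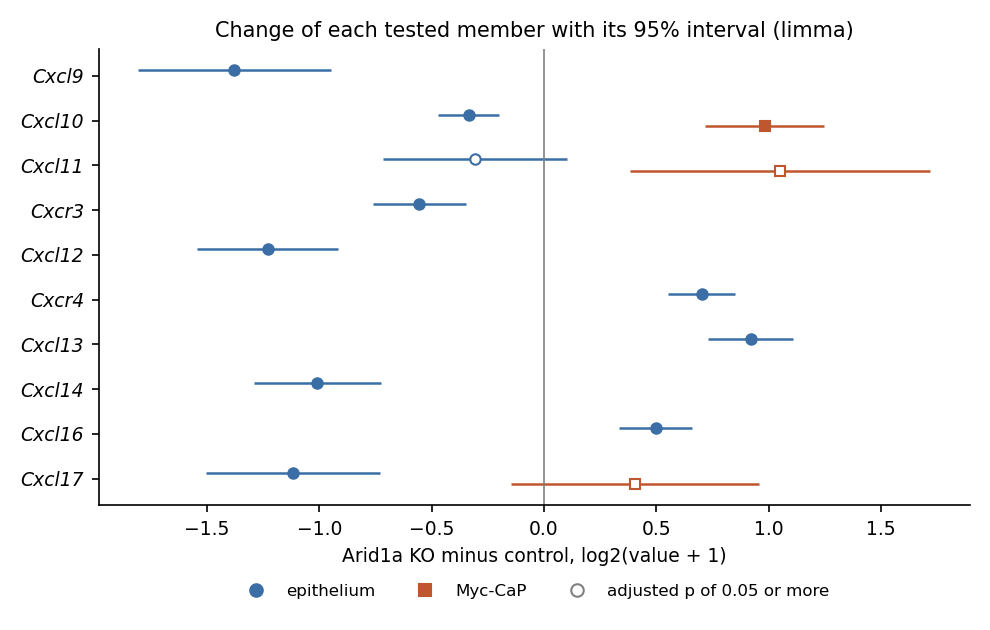
Log2 fold change on the log2(value + 1) scale (Arid1a KO minus control) of each gene tested, with its 95% interval from limma; blue circles are epithelium, orange squares are Myc-CaP, and open symbols did not pass. Cxcl10 lies at -0.34 in epithelium and 0.98 in Myc-CaP, and 7 genes have no Myc-CaP value.

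Set side by side, Cxcl10 was -0.34 ± 0.06 in the epithelium and 0.98 ± 0.10 in Myc-CaP, and Cxcl17 was -1.12 ± 0.17 and 0.40 ± 0.21, of which the last did not pass. Cxcl11 was -0.31 ± 0.18 and 1.05 ± 0.26 and passed in neither. The 2 sets were normalized separately and differ in strain, unit and driver, so the difference between them was not tested.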

How the data were processed

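RNA-seq of 6 sorted epithelium libraries and 4 Myc-CaP libraries was analysed. The study's methods name TopHat2 on GRCm38 and strand-specific HTSeq-count, whereas the submitters' processing notes list HISAT2 and HTSeq on mm10, so the aligner is not settled. The authors deposited the epithelium as RPKM and Myc-CaP as TPM, both scaled by gene lengths that are not given in the sources used here. Since these units are not counts, each table was fitted on its own as log2(value + 1) with limma 3.58.1 (lmFit, eBayes with a trend) in R 4.3.3, without covariates. The test covered genes whose mean over a table reached 0.5, and adjusted p-values (two-sided, Benjamini-Hochberg over all genes tested) under 0.05 were called. The study's methods give 3 mice per epithelium genotype, while separate cultures behind the Myc-CaP libraries are not stated, so those p-values measure the spread between libraries, which may be technical. The code was tested on simulated data.

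The 10 genes, the pathway lists and the marker lists were chosen with earlier results of these data known. Besides the 10, the text names at most the 4 largest called changes per list, Irf1, defining markers, overlapping genes, Cxcr6 and genes of opposite direction in the 2 systems (both chosen after their values were seen) and the 5 genes most correlated with each of the 10 that was tested in both systems. List counts include every member, and certain single genes are not reported here. Sums of a list add its RPKM or TPM within a library. Alternatives were a pseudocount of 0.1, no filter, a minimum mean of 5, rescaling to the same sum, quantile normalization, no trend, a replicate block and leaving out each library. Depth was estimated from steps between RPKM values with GENCODE M21 lengths, with which 20.0% to 23.9% of low values came out within 0.02 of whole reads, so no counting interval is given.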

Additional observations from a re-analysis of the deposited data

Results flagged for a closer look

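The values of 8 genes lay in opposite directions in epithelium and in Myc-CaP, with every knockout library on the other side of every control library in each. They were found among 32 genes of the chemokine, receptor and pathway lists that were tested in both systems (25.0%), and 2331 of all 12121 genes tested in both (19.2%) met the same description. The difference itself was not tested, because the 2 tables were normalized separately. On the log2(value + 1) scale, Cxcl10 was -0.34 in epithelium and 0.98 in Myc-CaP, and both passed. Ido1, a target of interferon-gamma, was -0.81 and 0.85, and both passed. Cxcl17 was -1.12 and 0.40, Irf1 was -0.37 and 0.14, Adam17 was 0.64 and -0.10, Cxcl5, a ligand of Cxcr2, was -0.57 and 0.35, and the platelet chemokine Pf4 was 0.38 and -0.26. For these 5 the epithelium value passed and the Myc-CaP value did not. Cxcl17 met the Myc-CaP filter only through its knockout libraries, so its direction there is not independent of the filter. Socs1, an inhibitor of Jak kinases, was -0.30 and 0.25 and passed in neither. The genes beyond the 10 chemokines and receptors, Irf1 and the largest changes of each list were chosen after their values were seen.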

How the results depend on the processing

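Epithelium calls were 9294 genes, and 5872 with a minimum mean of 5. They were 7768 to 8819 when 1 library was left out, and 9 of the 10 chemokines and receptors were called in each of those 6 fits. Rescaling to the same sum ended the call of Cxcl10 (-0.16, adjusted p = 0.0739, range over its alternatives 0.00217 to 0.0739). Myc-CaP calls were 899 genes, 358 with no filter and 451 without a trend. Without 1 library they were 47 to 76, and limma then called 0 of the 10 genes, although 1 or 2 had an unadjusted p under 0.05. Same-numbered Myc-CaP libraries deviated together with r = 0.195, which 2 pairs cannot settle. With the replicate block, 2771 genes and 2 of the 10 were called, since Cxcl11 then passed (adjusted p = 0.0230). In the epithelium same-letter libraries correlated between -0.06 and 0.04, and the block changed no call among the 10. The log2 ratio of Cxcl9 to Cxcl10 differed by -1.04 in epithelium (-1.27 to -0.88 without 1 library, -1.54 with a pseudocount of 0.1). In Myc-CaP it differed by -0.89 (-1.04 to -0.74 without 1 library, and -0.31 with a pseudocount of 0.1). There Cxcl9 was near 0 and was listed at 0 in both EV libraries. The sign in Myc-CaP thus comes from the added constant and from Cxcl10, and says nothing of Cxcl9. No log2 fold change of a tested gene among the 10 changed direction. Depth limits Cxcl11, Cxcl9 and Cxcr3 most.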

Other observations

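The neutrophil-attracting CXC chemokines and their receptors, most of which signal through Cxcr2, gave 6 higher and 1 lower of 8 tested in epithelium (median log2 fold change 1.06) and 2 higher of 6 tested in Myc-CaP (median 0.65). Of all genes tested, 27.5% passed as higher in epithelium and 4.54% in Myc-CaP. Their summed level was 843 to 893 RPKM in control epithelium and 1640 to 1926 in the libraries labelled Arid1a KO. Most of each sum came from 1 gene, so the sums do not describe the list as a whole. Cxcl5, the 1 that fell, went from 31.8 ± 5.56 to 20.9 ± 1.23 RPKM. The 10 genes described above summed to 487 to 509 RPKM in controls and 430 to 436 in the libraries labelled Arid1a KO. The difference between the 2 lists was not tested.

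Among 12121 genes tested in both systems, the pattern most like that of Cxcl10 over 6 epithelium and 4 Myc-CaP libraries was that of Gpx3, a secreted glutathione peroxidase (r = 0.999 in each). Lamb2, Ltbp3, Cryab and Mthfd2 followed with r between 0.990 and 0.997. For Cxcl11 the nearest were Tpra1 (r = 0.964 and 0.957), G630025P09Rik, Mgst3, Bola3 and Tmem102. For Cxcl17 they were Ccdc122 (r = 0.998 and 0.986), Acot1, Znhit6, Itm2b and Sec62. These correlations describe libraries that share group and scaling, and with so few libraries many genes reach such values.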
